A study of Mus musculus with 15 samples.

Results

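The genes of DNA replication and S phase examined here were 50 genes, listed by symbol, out of the 23412 genes counted in 15 RNA-seq libraries. They were chosen for the known roles of their products: the MCM helicase, the origin recognition complex, licensing and firing factors, polymerases, the sliding clamp and its loaders, nucleotide supply, G1/S regulators and a histone chaperone. All 50 were found in every library and all 50 passed the filter on low counts. The libraries came from mouse embryonic stem cells (mESCs) of the male line v6.5, grown on gelatinized dishes, and held polyadenylated RNA from 5 conditions with 3 replicates each. Wild-type cells and cells of 1 Stag1-/- clone and 1 Stag2-/- clone, both made with CRISPR-Cas9, were given the transfection control siGLO, and wild-type and Stag2-/- cells were also given an siRNA against Stag1 (siStag1). Every condition, the controls included, was therefore transfected with 50 nM of RNA oligonucleotide and collected after 48 h. STAG1 and STAG2 are alternative subunits of cohesin, the ring complex that holds sister chromatids together and shapes chromosome loops. The siStag1 treatment of Stag2-/- cells is the condition in which both were reduced. Each knockout is a single clone, so its effect cannot be told apart from other properties of that clone, and the study calls its RNA-seq replicates biological, but the labels do not say whether they were separate cultures, so that p-values measure the spread between these samples, which may be partly technical.

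DNA replication is prepared in G1, when the origin recognition complex (ORC), CDC6 and CDT1 load the MCM2-7 helicase onto DNA. At the G1/S transition the kinases CDC7-DBF4 and CDK2-cyclin E convert loaded helicases into active forks with CDC45 and the GINS complex, and E2F transcription factors, held in check by the RB family, switch on many of the genes involved. Mouse ESCs cycle fast, with a short G1 phase, high CDK2 activity and RB kept largely phosphorylated, and replication genes are strongly expressed in them. Cohesin is loaded before S phase, and its cohesive form is established at the replication fork with help from the alternative clamp loader that contains CHTF18 and DSCC1.

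Each library held 14982560 to 19070126 counts on genes, enough for all 50 replication genes to be far above the limit of detection: the lowest value in any library was 148 normalized counts (Ccne2). Normalized counts are counts scaled to a common library size. Normalized Stag2 counts were 2329, 2334 and 2329 in wild-type siGLO and 663, 739 and 675 in Stag2-/- siGLO cells. Stag1 counts were 2288, 2137 and 2012 in wild-type siGLO, 518, 456 and 353 in wild-type siStag1 and 667, 781 and 629 in Stag2-/- siStag1 cells. The 1826, 2368 and 1875 Stag1 counts of Stag1-/- siGLO cells overlapped those of wild-type, so transcript counts do not check the label of that clone, whose deletion is in frame as the study describes it. The study reports that STAG1 protein could not be detected in the clone although its transcript level was normal. Protein levels were not analysed here. Markers of embryonic stem cells were detected in all libraries, with all 10 of the listed markers tested, and 3 of 8 fibroblast (feeder) markers fell below the filter. Between conditions the embryonic stem cell markers, summed, ranged over 117200 to 124900 normalized counts in wild-type siGLO, 101400 to 116000 in Stag1-/- siGLO, 93140 to 116500 in Stag2-/- siGLO and 72840 to 96400 in Stag2-/- siStag1 cells, and the part of this shift in the results below was not tested.

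The 250 bases upstream of each RefSeq transcription start (GRCm38.p6) were available for 40 of the 50 genes. The E2F word was searched as TTTCCCGC, TTTCGCGC, TTTGCCGC or TTTGGCGC on both strands, and it was present in 9 of the 40 (22.5%), against 2.16% of 27025 genes with windows of the same length. A gene was counted if any of its annotated starts had the word, and the 40 genes had 49 such starts. Of the 15 with a promoter that were lower in Stag2-/- siStag1 than in wild-type siGLO cells, 4 (26.7%) held the word, and of the other 25, 5 (20%) did. The CCAAT word was present in 22 of 40 (55%), against 37.5% of all genes with a promoter, in 11 of the 15 lower genes (73.3%) and in 11 of the other 25 (44%). The cell cycle word TTTGAA was present in 6 of 40 (15%), against 18.3% of all genes with a promoter. The promoters of 4 genes are shown because their genes behaved differently below: Orc1 and Mcm10 were lower in Stag2-/- siStag1 cells, Mcm6 was called in no comparison, and Rfc3 was higher. Capitals mark the E2F words, all other bases are in lower case, and each sequence, from the start nearest the 5′ end of the gene model, reads in the direction of transcription up to the base before the start. Orc1 lies on the plus strand (chr4:108579204-108579453), Mcm10 on the minus strand (chr2:5012792-5013041), Mcm6 on the minus strand (chr1:128359706-128359955) and Rfc3 on the minus strand (chr5:151651209-151651458).
Orc1: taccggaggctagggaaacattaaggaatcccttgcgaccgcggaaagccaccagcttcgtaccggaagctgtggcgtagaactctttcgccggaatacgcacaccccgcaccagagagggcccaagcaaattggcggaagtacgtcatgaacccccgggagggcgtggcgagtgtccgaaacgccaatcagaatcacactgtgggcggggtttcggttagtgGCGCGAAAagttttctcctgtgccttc
Mcm10: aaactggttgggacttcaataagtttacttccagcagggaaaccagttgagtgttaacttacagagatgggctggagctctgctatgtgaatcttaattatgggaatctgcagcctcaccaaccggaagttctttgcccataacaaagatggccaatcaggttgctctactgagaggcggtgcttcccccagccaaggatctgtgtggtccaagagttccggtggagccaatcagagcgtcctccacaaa
Mcm6: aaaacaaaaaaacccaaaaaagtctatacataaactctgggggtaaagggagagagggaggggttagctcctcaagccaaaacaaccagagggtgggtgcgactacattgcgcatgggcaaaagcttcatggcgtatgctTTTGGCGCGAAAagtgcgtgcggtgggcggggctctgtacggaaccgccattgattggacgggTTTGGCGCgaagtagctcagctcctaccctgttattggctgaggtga
Rfc3: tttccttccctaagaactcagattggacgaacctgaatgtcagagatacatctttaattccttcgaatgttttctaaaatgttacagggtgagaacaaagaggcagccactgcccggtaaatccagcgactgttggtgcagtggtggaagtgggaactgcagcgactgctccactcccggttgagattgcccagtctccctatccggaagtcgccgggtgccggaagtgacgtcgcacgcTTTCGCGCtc
In Mcm6 the first capital run holds 2 overlapping words on opposite strands and the second run holds 1 more, in Orc1 and Rfc3 a single word lies close to the start, and Mcm10 holds none of these words but has 2 CCAAT words, as do Orc1 and Mcm6. The word was thus found in a gene that fell, a gene that rose and a gene that did not pass the test in any comparison. A match is a description of letters and not a measured binding site.

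Against wild-type siGLO cells, the replication genes moved little in any condition, and falls outnumbered rises in Stag1-/- siGLO and in Stag2-/- siStag1 cells. The comparisons with wild-type siGLO share its 3 libraries, so their values are given side by side. In Stag2-/- siStag1 cells 16 of the 50 genes were lower and 3 were higher at an adjusted p under 0.1 in edgeR's quasi-likelihood test (38.0% called, against 43.9% of all 14508 genes tested). By direction, 32.0% of the 50 were lower, against 21.3% of all genes, and 6.0% were higher, against 22.6%. The sizes were modest: the median log2 fold change of the 50 genes was -0.14, against 0.01 over all genes, and 2 of them, E2f1 and Orc1, had log2 differences beyond 0.5, as did 34% of all genes. In bulk RNA, fewer cells in S phase and less RNA per cell cannot be told apart.

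Against wild-type siGLO, Stag1-/- siGLO cells had 8 lower and 2 higher replication genes (20% called, against a background of 20.0%). The median log2 fold change was -0.12, against -0.01 over all genes, and 39 of the 50 values were below 0, against 51.9% of all genes. With the replicate number added to the model as a block, 18 were lower and 6 higher, against a background of 30.6% called. Stag2-/- siGLO cells had 2 lower and 3 higher genes (10.0% called, against 28.3%), with a median of 0.00 and 25 of 50 values below 0. With the replicate block these were 9 lower and 6 higher, against 39.4%. The Stag1 knockdown in wild-type cells gave no called replication gene, against a background of 0.248%, and the 50 log2 fold changes lay between -0.18 and 0.11, with a median of -0.04 and 36 of 50 below 0, against 50.4% of all genes. At an unadjusted p under 0.05 there was 1 such gene, Mcm3, and DESeq2 and the fit with the replicate block (1.63% of all genes called) also called 0.

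Within Stag2-/- cells, the added Stag1 knockdown lowered 4 replication genes and raised none (8.0% called, against 6.37%). They were Orc1, Mcm10, E2f1 and Cdc6, and 8.0% of the 50 were lower against 3.39% of all genes. With the replicate block 8 were lower, against a background of 14.1% called in either direction. In all, 44 of 50 log2 fold changes were below 0, against 48.9% of all genes. The effect of siStag1 in Stag2-/- cells minus that in wild-type cells was not called for any of the 50 in edgeR without the replicate block, against 0.159% of all genes, and with the block it was called for 1, Mcm10, against 0.951%. At an unadjusted p under 0.05 there were 2, Mcm10 and Orc1, and DESeq2 called 0. Between the knockouts, Stag2-/- siGLO cells had 6 genes higher and 3 lower than Stag1-/- siGLO cells (18% called, against 25.7%), and 14 higher and 6 lower with the replicate block, against 37.3%.

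**Figure D1:**
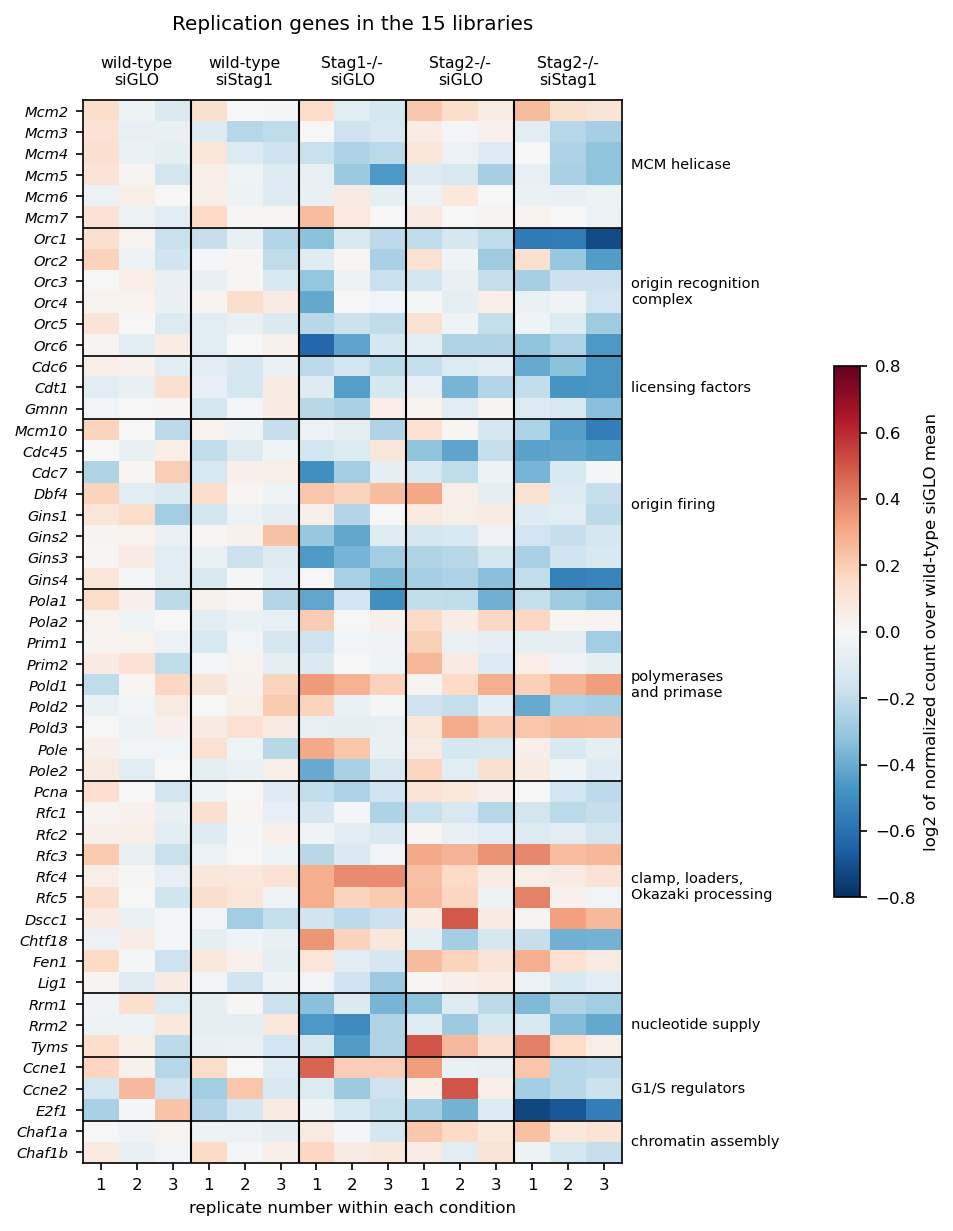
Heat map of the 50 replication genes (rows, grouped by role) in the 15 libraries (columns, by condition and replicate number), coloured by log2 of the normalized count over the wild-type siGLO mean, with 1 added to each. The deepest blue cells are those of E2f1 and Orc1 in the Stag2-/- siStag1 libraries and Orc6 in replicate 1 of Stag1-/- siGLO, and most rows stay pale in every condition.

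**Figure D2:**
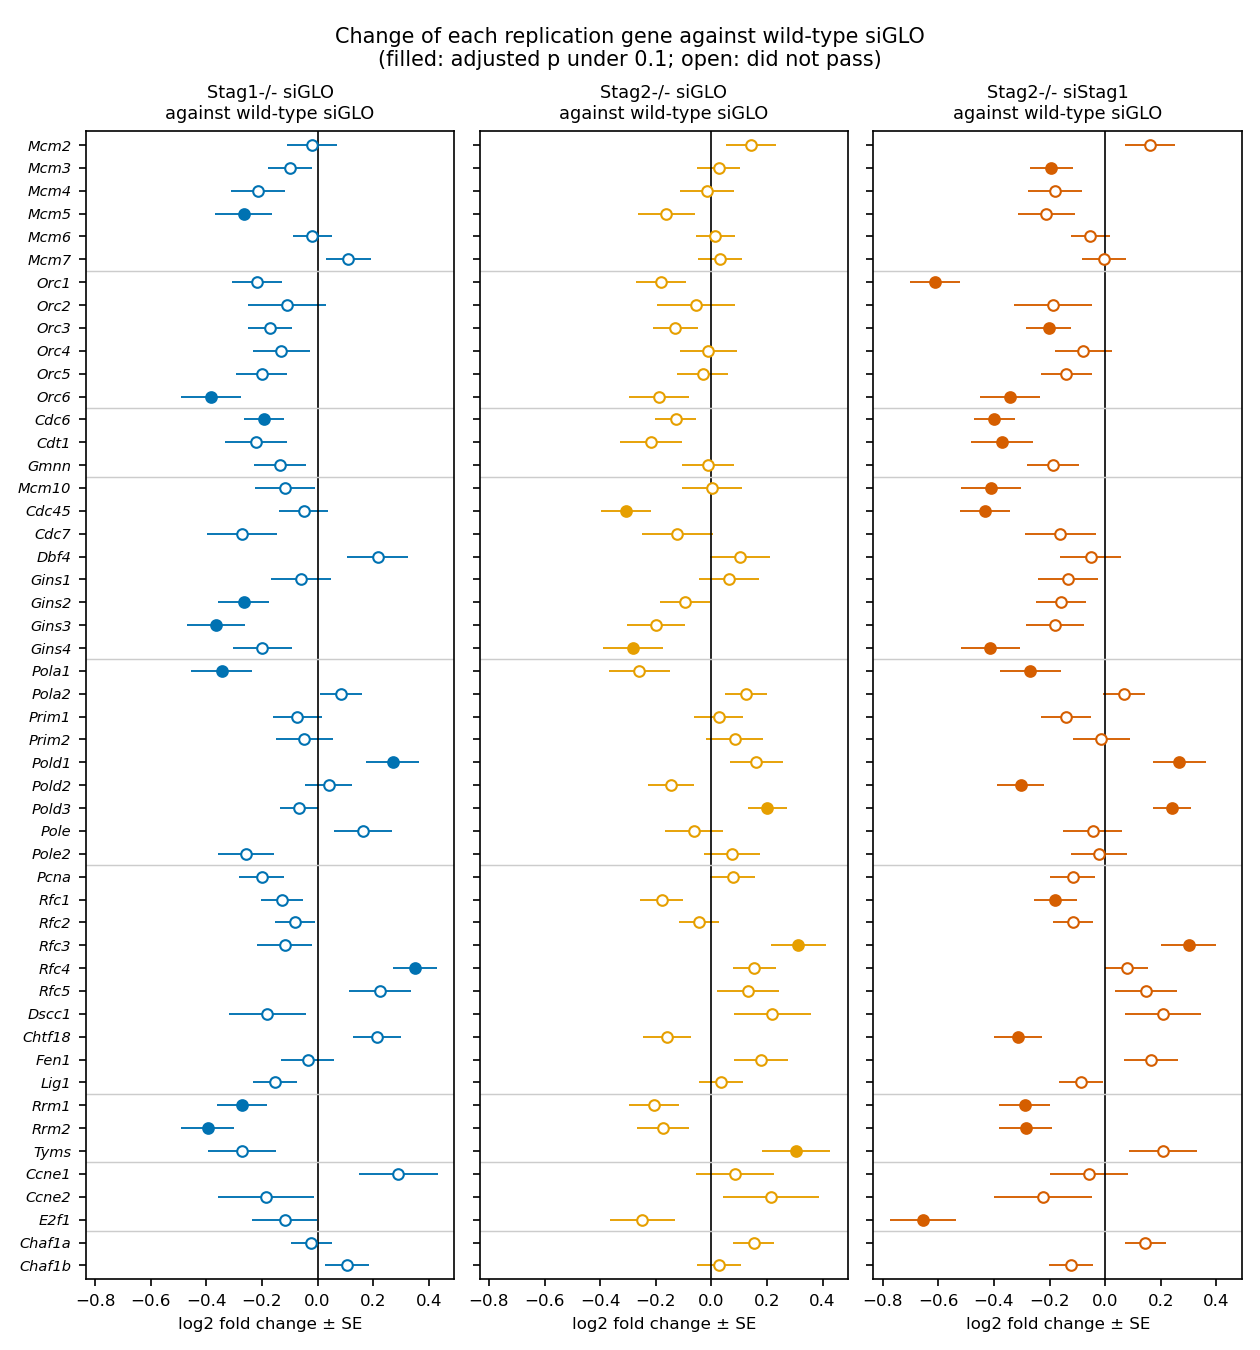
Log2 fold change with its SE for each replication gene (rows, ordered by role) against wild-type siGLO in the Stag1-/- clone, the Stag2-/- clone and the Stag2-/- clone with siStag1, with filled points for an adjusted p under 0.1. In the right panel 16 filled points lie below 0 and 3 above, and the 6 points of the helicase subunits lie between -0.21 and 0.16.

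The MCM2-7 helicase, a ring of 6 subunits that unwinds DNA at the fork, moved little, with log2 differences of -0.21 to 0.16 in Stag2-/- siStag1 cells and 1 called subunit. Per kilobase of exon and per 1e6 counts, its subunits were among the 10 highest levels of the 50 genes in wild-type siGLO cells, from 82.3 ± 7.6 (SD, n = 3) for Mcm2 to 165 ± 14.5 for Mcm5. Normalized Mcm2 counts were 10990, 9685 and 9215 in wild-type siGLO and 11870, 10890 and 10710 in Stag2-/- siStag1 cells, and these overlapped. Mcm6 counts were 7850, 8356 and 8082 against 7800, 7764 and 7855, a log2 difference of -0.05 (SE 0.07, adjusted p = 0.593). Mcm7 counts were 10030, 8971 and 8714 against 9435, 9220 and 8961, with a difference of -0.01 (SE 0.08, adjusted p = 0.967). Mcm4 counts were 6529, 5755 and 5655 in wild-type siGLO, 5288, 5036 and 5154 in Stag1-/- siGLO and 5979, 5046 and 4785 in Stag2-/- siStag1 cells, and neither difference passed the test. All 3 Stag1-/- libraries were below the wild-type ones for Mcm4, and with the replicate block its adjusted p was 0.0207. Of the 6 subunits, those called against wild-type siGLO without the block were Mcm3 in Stag2-/- siStag1 and Mcm5 in Stag1-/- siGLO cells. Mcm3 counts were 9764, 8604 and 8626 in wild-type siGLO and 8453, 7672 and 7488 in Stag2-/- siStag1 cells, a fall by 0.19 in log2 units (SE 0.08, adjusted p = 0.064). These Mcm3 groups did not overlap, but the call was lost without replicate 1 of wild-type siGLO (adjusted p = 0.237) or replicates 2 or 3 of Stag2-/- siStag1 (0.166 and 0.198). Mcm5 counts were 12370, 11660 and 10380 in wild-type siGLO and 10950, 9328 and 8326 in Stag1-/- siGLO cells, which overlapped, with a log2 difference of -0.27 (SE 0.10, adjusted p = 0.0978). Without replicates 1 or 2 of wild-type siGLO, or 2 or 3 of Stag1-/- siGLO, the adjusted p for Mcm5 was 0.199 to 0.291. Mcm5 lies on chromosome 8, whose genes were lower as a whole in that clone, as described further on.

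Of ORC, which marks origins and recruits the helicase, all 6 subunits had values below 0 in Stag2-/- siStag1 cells and 3 passed the test, where 43.9% of all genes did. Orc1, the subunit whose level cycles and which binds the nucleosome at origins, fell most. Normalized Orc1 counts were 2027, 1889 and 1638 in wild-type siGLO, 1630, 1780 and 1572 in wild-type siStag1, 1605, 1680 and 1611 in Stag2-/- siGLO and 1252, 1254 and 1127 in Stag2-/- siStag1 cells. The Stag2-/- siStag1 libraries lay below those of every other condition, with a fold of 1.53 lower than wild-type siGLO (log2 difference -0.61, SE 0.09, adjusted p = 8.5e-05) and 1.35 lower than Stag2-/- siGLO (log2 difference -0.43, SE 0.09, adjusted p = 0.0137). Both calls held without each library in turn. The difference between the siStag1 effects for Orc1 was -0.27 (SE 0.13) on the log2 scale, with an adjusted p of 0.858 and an unadjusted p of 0.0483. Part of the Orc1 exons (10.8%) is also covered by the gene model Gm12743, so reads there may be assigned to neither. Orc6, needed for loading the helicase, fell in both Stag1-/- siGLO and Stag2-/- siStag1 cells, with 1203, 1117 and 1236 counts in wild-type siGLO, 766, 886 and 1075 in Stag1-/- siGLO and 947, 995 and 864 in Stag2-/- siStag1 cells. Neither group overlapped wild-type siGLO, with log2 differences of -0.38 (SE 0.11, adjusted p = 0.0254) and -0.34 (SE 0.11, adjusted p = 0.0205). Replicate 1 of Stag1-/- siGLO was the lowest Orc6 library, and without it the adjusted p was 0.117. Orc6 too lies on chromosome 8. Orc3 fell by 0.20 on the log2 scale in Stag2-/- siStag1 cells (SE 0.08, adjusted p = 0.06), a call lost without replicates 1 or 2 of wild-type siGLO (0.106 and 0.178) or replicate 1 of Stag2-/- siStag1 (0.158). Orc2, Orc4 and Orc5 were called in no comparison without the block, and 29.8% of the Orc2 exons overlap those of Nif3l1.

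Both factors that bring the helicase to ORC were lower in Stag2-/- siStag1 than in wild-type siGLO cells, as were 21.3% of all genes. Cdc6 encodes the ATPase that joins ORC at the origin, and its normalized counts were 1763, 1744 and 1594 in wild-type siGLO, 1469, 1526 and 1467 in Stag1-/- siGLO, 1491, 1577 and 1602 in Stag2-/- siGLO and 1284, 1356 and 1230 in Stag2-/- siStag1 cells. The Stag2-/- siStag1 libraries were the lowest 3 of all 15, by 0.40 on the log2 scale below wild-type siGLO (SE 0.07, adjusted p = 0.000526). Against Stag2-/- siGLO the Cdc6 difference was -0.27 (SE 0.07, adjusted p = 0.0501), which was lost without replicates 2 or 3 of Stag2-/- siGLO (0.123 and 0.142) or replicate 3 of Stag2-/- siStag1 (0.222). In Stag1-/- siGLO cells Cdc6 was lower by 0.19 in log2 units (SE 0.07, adjusted p = 0.0911), and the call was lost without any of 5 of the 6 libraries, with replicate 3 of wild-type siGLO as the exception (adjusted p of 0.112 to 0.247). Cdt1, the helicase loading partner that is destroyed once S phase begins, had 3571, 3633 and 4130 counts in wild-type siGLO and 3292, 2723 and 2739 in Stag2-/- siStag1 cells, with no overlap and a log2 difference of -0.37 (SE 0.11, adjusted p = 0.0152). Cdt1 lies on chromosome 8. Gmnn, the inhibitor of CDT1, was called in no comparison without the block.

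Among the 8 genes for origin firing, Mcm10, Cdc45 and Gins4 were lower in Stag2-/- siStag1 cells, as were 21.3% of all genes. Mcm10, a factor that helps to activate the loaded helicase, had 4166, 3682 and 3186 normalized counts in wild-type siGLO, 3757, 3599 and 3240 in wild-type siStag1, 3994, 3712 and 3346 in Stag2-/- siGLO and 3080, 2715 and 2507 in Stag2-/- siStag1 cells. The first 3 of these conditions overlapped each other and the last lay below all of them. The log2 difference was -0.41 both from wild-type siGLO (SE 0.11, adjusted p = 0.00752) and from Stag2-/- siGLO (SE 0.11, adjusted p = 0.0447). Against Stag2-/- siGLO the Mcm10 call was lost without replicates 1 or 2 of that group (0.141 and 0.105) or replicates 2 or 3 of Stag2-/- siStag1 (0.138 and 0.21), and with the replicate block the adjusted p was 0.000323. The difference between the siStag1 effects for Mcm10 was -0.35 (SE 0.15, adjusted p = 0.785, and 0.0738 with the block). Cdc45, part of the active helicase, followed another pattern, lower already in Stag2-/- siGLO cells. Its counts were 1176, 1126 and 1217 in wild-type siGLO, 937, 875 and 1032 in Stag2-/- siGLO and 871, 877 and 860 in Stag2-/- siStag1 cells. Both Stag2-/- groups lay below wild-type siGLO without overlap, by log2 differences of -0.31 (SE 0.09, adjusted p = 0.0227) and -0.43 (SE 0.09, adjusted p = 0.00133). The first call was lost without replicate 2 of Stag2-/- siGLO (adjusted p = 0.102). Gins4, a subunit of the GINS tetramer, had 1650, 1536 and 1451 counts in wild-type siGLO, 1286, 1302 and 1226 in Stag2-/- siGLO and 1349, 1063 and 1070 in Stag2-/- siStag1 cells. Neither Stag2-/- group overlapped wild-type siGLO for Gins4, with log2 differences of -0.28 (SE 0.11, adjusted p = 0.0721) and -0.41 (SE 0.11, adjusted p = 0.00649), but the first was lost without any of 5 of 6 libraries, replicate 3 of wild-type siGLO being the exception (adjusted p of 0.11 to 0.184).

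Another pair of GINS subunits fell in Stag1-/- siGLO cells, where 20.0% of all genes were called in either direction. Gins3 counts were 325, 339 and 305 in wild-type siGLO and 235, 249 and 267 in Stag1-/- siGLO cells, with no overlap and a log2 difference of -0.37 (SE 0.11, adjusted p = 0.0288), which was lost without replicate 2 of wild-type siGLO (adjusted p = 0.114). Gins2 counts were 1056, 1061 and 1003 against 842, 778 and 974, a log2 difference of -0.27 (SE 0.09, adjusted p = 0.0631). The Gins2 call was lost without replicates 1 or 2 of wild-type siGLO (0.145 and 0.174) or of Stag1-/- siGLO (0.163 and 0.214), and 67.3% of the Gins2 exons overlap those of Gse1, so its counts are uncertain. Gins2, Gins3 and Gins4 all lie on chromosome 8, whereas Gins1, on chromosome 2, was called in no comparison. The genes of the firing kinase, Cdc7 and its activator Dbf4, were called in none without the block, and in Stag1-/- siGLO cells their log2 differences were -0.27 and 0.22 with adjusted p of 0.0259 and 0.0307 with it.

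**Figure D3:**
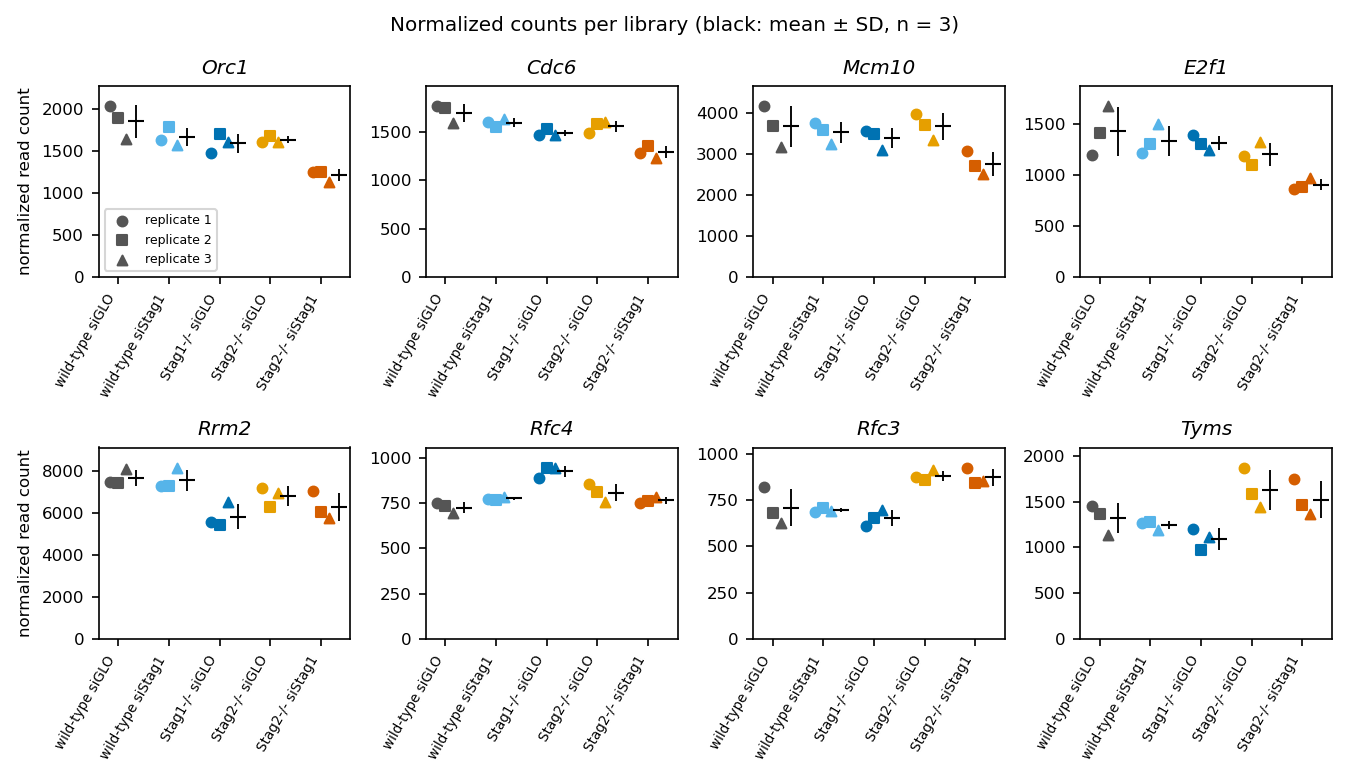
Normalized read counts (y axis, from 0) of 8 replication genes in each library, with the marker shape giving the replicate number and the black bar the mean ± SD of 3 replicates. Orc1, Cdc6, Mcm10 and E2f1 were lowest in Stag2-/- siStag1 cells, Rrm2 was lowest and Rfc4 highest in Stag1-/- siGLO cells, and Rfc3 and Tyms were highest in the 2 Stag2-/- conditions.

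E2f1, which encodes a transcription factor that activates many genes of the G1/S transition, had the largest change of the 50 genes in Stag2-/- siStag1 cells. Normalized E2f1 counts were 1196, 1417 and 1673 in wild-type siGLO, 1213, 1301 and 1500 in wild-type siStag1, 1389, 1310 and 1250 in Stag1-/- siGLO, 1183, 1099 and 1327 in Stag2-/- siGLO and 863, 887 and 972 in Stag2-/- siStag1 cells. The last 3 values were lower than those of every other library. E2f1 was 1.57-fold lower than in wild-type siGLO (log2 difference -0.66, SE 0.12, adjusted p = 0.000453), and this held without each library in turn. Against Stag2-/- siGLO the log2 difference was -0.41 (SE 0.12, adjusted p = 0.0671), lost without any of 5 of 6 libraries, replicate 2 of Stag2-/- siGLO being the exception (adjusted p of 0.112 to 0.203). With the replicate block the adjusted p was 0.0123. The genes for cyclin E, the partner of CDK2 at the G1/S transition, did not pass the test without the block. Ccne1 counts were 4772, 4340 and 3623 in wild-type siGLO and 5855, 4871 and 4860 in Stag1-/- siGLO cells, with no overlap, a log2 difference of 0.29 (SE 0.14, adjusted p = 0.193) and an adjusted p of 0.00672 with the replicate block. Ccne2 was the gene with the lowest level of the 50 on that scale (2.98 ± 0.518 (SD, n = 3) in wild-type siGLO).

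The polymerase subunits moved in both directions. Pold1, the catalytic subunit of polymerase delta, had 3483, 4053 and 4504 normalized counts in wild-type siGLO, 5083, 4877 and 4559 in Stag1-/- siGLO and 4585, 4838 and 5063 in Stag2-/- siStag1 cells. Both groups lay just above the highest wild-type library, with log2 differences of 0.27 (SE 0.10, adjusted p = 0.072) and 0.27 (SE 0.10, adjusted p = 0.0392). The first was lost without replicates 1 or 2 of wild-type siGLO (0.276 and 0.154) or of Stag1-/- siGLO (0.207 and 0.137), and the second without replicate 1 of wild-type siGLO (0.181) or replicate 3 of Stag2-/- siStag1 (0.122). Pold3, an accessory subunit of the same enzyme, had 1806, 1761 and 1862 counts in wild-type siGLO, 1732, 1721 and 1730 in Stag1-/- siGLO, 1934, 2223 and 2090 in Stag2-/- siGLO and 2113, 2156 and 2144 in Stag2-/- siStag1 cells. Pold3 was higher in both Stag2-/- groups than in every wild-type siGLO library, by 0.20 (SE 0.07, adjusted p = 0.0488) and 0.24 (SE 0.07, adjusted p = 0.0125) on the log2 scale. The first was lost without replicates 2 or 3 of Stag2-/- siGLO (0.196 and 0.11) or replicate 2 of wild-type siGLO (0.166). Pold2, the accessory subunit that connects the others, moved the other way in Stag2-/- siStag1 cells, by -0.30 (SE 0.08, adjusted p = 0.0101), with 2234, 2478 and 2461 counts against 2850, 2903 and 3106. Pola1, the catalytic subunit of polymerase alpha, which starts each new strand, had 3291, 3050 and 2574 counts in wild-type siGLO, 2230, 2675 and 2118 in Stag1-/- siGLO and 2599, 2439 and 2359 in Stag2-/- siStag1 cells. These overlapped, with log2 differences of -0.34 (SE 0.11, adjusted p = 0.047) and -0.27 (SE 0.11, adjusted p = 0.0667), each lost without any of 4 of the 6 libraries, replicates 1 and 2 of wild-type siGLO among them (adjusted p of 0.139 to 0.184 and 0.142 to 0.233). The others were replicates 1 and 3 of Stag1-/- siGLO and replicates 2 and 3 of Stag2-/- siStag1. Pola1 lies on the X chromosome, whose median log2 fold change was -0.05 in Stag1-/- siGLO but 0.12 in Stag2-/- siStag1 cells, so that Pola1 moved against its chromosome there. Without the block, Pole, Pola2 and both primase genes were called in no comparison, and Pole2 was called between the knockouts, as described further on.

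The clamp loader genes also split. Rfc3, a subunit of every clamp loader, had 822, 680 and 626 normalized counts in wild-type siGLO, 609, 654 and 698 in Stag1-/- siGLO, 875, 858 and 911 in Stag2-/- siGLO and 925, 843 and 854 in Stag2-/- siStag1 cells. Every Stag2-/- library was above every wild-type and Stag1-/- library, with log2 differences from wild-type siGLO of 0.31 (SE 0.10, adjusted p = 0.0348) and 0.30 (SE 0.10, adjusted p = 0.0259). Both were lost without replicate 3 of wild-type siGLO (0.155 and 0.127), and the first also without its replicate 2 (0.129). Rfc4, another shared subunit, was highest in Stag1-/- siGLO cells, with 889, 943 and 945 counts against 753, 732 and 693 in wild-type siGLO, a log2 difference of 0.35 (SE 0.08, adjusted p = 0.00634) that held without each library in turn. Part of the Rfc4 exons (12.65%) overlaps those of Eif4a2. Chtf18, the large subunit of the loader that acts in sister chromatid cohesion, had 1824, 1968 and 1867 counts in wild-type siGLO, 2407, 2144 and 2012 in Stag1-/- siGLO, 1792, 1564 and 1717 in Stag2-/- siGLO and 1657, 1446 and 1449 in Stag2-/- siStag1 cells. It was lower in Stag2-/- siStag1 than in wild-type siGLO cells without overlap, by -0.31 (SE 0.09, adjusted p = 0.00937). Rfc1, the large subunit of the canonical loader, was lower by 0.18 on the log2 scale in Stag2-/- siStag1 cells (SE 0.08, adjusted p = 0.0795), a call lost without replicates 1 or 2 of wild-type siGLO or 2 or 3 of Stag2-/- siStag1 (0.154 to 0.198). The genes that mature Okazaki fragments, Fen1 and Lig1, were called in no comparison without the block, and 84.2% of the Fen1 exons overlap other genes.

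Of all genes, 20.0% were called in either direction in Stag1-/- siGLO and 43.9% in Stag2-/- siStag1 cells against wild-type siGLO. Ribonucleotide reductase, which makes deoxyribonucleotides, had both of its listed subunits called lower in both conditions. Its small subunit Rrm2 had 7458, 7434 and 8119 normalized counts in wild-type siGLO, 5569, 5421 and 6505 in Stag1-/- siGLO, 7172, 6273 and 6947 in Stag2-/- siGLO and 7064, 6038 and 5779 in Stag2-/- siStag1 cells. Each of the last 3 groups lay below wild-type siGLO without overlap. The log2 difference was -0.40 in Stag1-/- siGLO (SE 0.10, adjusted p = 0.0106), which held without each library in turn, and -0.28 in Stag2-/- siStag1 (SE 0.10, adjusted p = 0.0274), which was lost without replicate 3 of that group (adjusted p = 0.118). In Stag2-/- siGLO it was -0.17 (SE 0.10, adjusted p = 0.209). The large subunit Rrm1 had 6337, 7064 and 5984 counts in wild-type siGLO, 5131, 5961 and 4984 in Stag1-/- siGLO and 5062, 5462 and 5334 in Stag2-/- siStag1 cells. Rrm1 did not overlap wild-type siGLO in either group, with log2 differences of -0.27 (SE 0.09, adjusted p = 0.0575) and -0.29 (SE 0.09, adjusted p = 0.0198). The first was lost without replicate 2 of wild-type siGLO or replicates 1 or 3 of Stag1-/- siGLO (0.163 to 0.25), and the second without replicate 2 of wild-type siGLO (0.109). In Stag2-/- siGLO cells Rrm1 counts were 5172, 6023 and 5600, with a log2 difference of -0.21 (adjusted p = 0.118, and 0.0197 with the block). Tyms, thymidylate synthase, went up in Stag2-/- siGLO cells, with 1459, 1362 and 1141 counts in wild-type siGLO, 1199, 967 and 1119 in Stag1-/- siGLO and 1870, 1580 and 1445 in Stag2-/- siGLO cells. Wild-type and Stag2-/- siGLO overlapped, with a log2 difference of 0.30 (SE 0.12, adjusted p = 0.0882) that was lost without replicates 2 or 3 of wild-type siGLO or 1 or 2 of Stag2-/- siGLO (0.135 to 0.311).

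Compared directly, the knockouts differed most at Tyms among the 50 genes. It was 1.49-fold higher in Stag2-/- than in Stag1-/- siGLO cells, with no overlap (log2 difference 0.57, SE 0.12, adjusted p = 0.00403). Rfc3 was higher by 0.43 (SE 0.10, adjusted p = 0.0068) and Pold3 by 0.27 (SE 0.07, adjusted p = 0.0132) on the log2 scale. Pcna, the sliding clamp, had 6016, 5823 and 6167 counts in Stag1-/- siGLO and 7446, 7299 and 7090 in Stag2-/- siGLO cells, a log2 difference of 0.28 (SE 0.08, adjusted p = 0.0263), although neither knockout passed the test against wild-type siGLO (7582, 6890 and 6221) without the block (with it, the adjusted p in Stag1-/- siGLO cells was 0.0415). Chtf18 was the gene with the largest fall, by 0.37 in log2 units (SE 0.09, adjusted p = 0.00704). These 5 calls held without each library in turn. Dscc1, the partner of CHTF18 in its loader, went the other way, with 228, 221 and 227 counts in Stag1-/- siGLO and 267, 359 and 267 in Stag2-/- siGLO cells. Its log2 difference was 0.40 (SE 0.14, adjusted p = 0.0533), lost without replicate 2 of Stag2-/- siGLO (0.256) or of Stag1-/- siGLO (0.133). Pole2, an accessory subunit of polymerase epsilon, had 451, 497 and 546 against 670, 561 and 650 counts, a log2 difference of 0.33 (SE 0.10, adjusted p = 0.0327), lost without replicate 1 of either group (0.113 and 0.105). Cdc45 was lower by 0.26 (SE 0.09, adjusted p = 0.0545) and Rfc4 by 0.20 (SE 0.08, adjusted p = 0.0932) on the log2 scale in Stag2-/- siGLO cells. The Cdc45 call was lost without replicate 3 of Stag1-/- siGLO or replicates 1 or 2 of Stag2-/- siGLO (0.112 to 0.194), and that of Rfc4 without replicates 2 or 3 of either group (0.164 to 0.27).

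Chaf1a and Chaf1b, subunits of the chaperone that deposits histones behind the fork, were called in no comparison without the block. Chaf1a counts were 2386, 2336 and 2429 in wild-type siGLO and 2809, 2532 and 2569 in Stag2-/- siStag1 cells, without overlap and with a log2 difference of 0.14 (SE 0.07, adjusted p = 0.14), and 52.5% of its exons overlap those of Ubxn6. With the block, further genes were called in comparisons whose same-numbered libraries deviated together. Against wild-type siGLO they were Mcm4, Orc1, Orc3, Orc5, Cdt1, Cdc7, Gins4, Pole2, Pcna and Tyms (lower) and Dbf4, Rfc5, Chtf18 and Ccne1 (higher) in Stag1-/- siGLO cells. In Stag2-/- siGLO cells they were Mcm5, Orc1, Cdt1, Pola1, Rfc1, Rrm1 and E2f1 (lower) and Mcm2, Fen1 and Chaf1a (higher). After siStag1 in Stag2-/- cells they were Mcm3, Mcm4, Pcna and Ccne2, all lower. Between the knockouts they were Mcm2, Mcm3, Mcm4, Fen1, Lig1, Rrm2, Ccne2 and Chaf1a (higher in Stag2-/-) and Pold2, Pole and Ccne1 (lower). In Stag2-/- siStag1 against wild-type siGLO cells, where 1 of the 3 same-numbered pairs had an r under 0.1, the block gave 27 calls, against 53.7% of all genes, and those added were Mcm4, Mcm5, Orc2 and Gmnn (lower) and Mcm2, Fen1, Tyms and Chaf1a (higher). Across all 50 genes, 24 had no overlap between Stag2-/- siStag1 and wild-type siGLO libraries, 20 lower and 4 higher, against 23.3% and 24.0% of all genes tested.

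Of the 50 genes, 6 lie on chromosome 8, whose 710 tested genes were lower as a whole in every knockout condition. Against wild-type siGLO their median log2 difference was -0.19 in the Stag1-/- clone, -0.20 in Stag2-/- siGLO, -0.22 in Stag2-/- siStag1 and 0.00 in wild-type siStag1 cells. Mcm5, Orc6, Cdt1, Gins2, Gins3 and Gins4 were therefore read against that level. Less the chromosome median, the log2 difference in Stag1-/- siGLO cells was -0.19 for Orc6, -0.17 for Gins3, -0.075 for Gins2 and -0.075 for Mcm5, in Stag2-/- siGLO cells it was -0.08 for Gins4, and in Stag2-/- siStag1 cells it was -0.19 for Gins4, -0.15 for Cdt1 and -0.12 for Orc6. E2f1, Orc1, Cdc6, Mcm10 and Cdc45 lie on chromosomes whose medians were within 0.1 of 0 in these comparisons. Among the 44 genes elsewhere, 4 were lower and 2 higher in Stag1-/- siGLO (13.6%, against 20.0% of all genes), 1 lower and 3 higher in Stag2-/- siGLO (9.09%, against 28.3%) and 13 lower and 3 higher in Stag2-/- siStag1 cells (36.4%, against 43.9%). Per library, the chromosome 8 median was lower by 0.12 in replicate 1 of Stag1-/- siGLO, and by 0.19 to 0.23 in the other 8 knockout libraries, relative to the wild-type siGLO mean on the log2 scale.

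**Figure D4:**
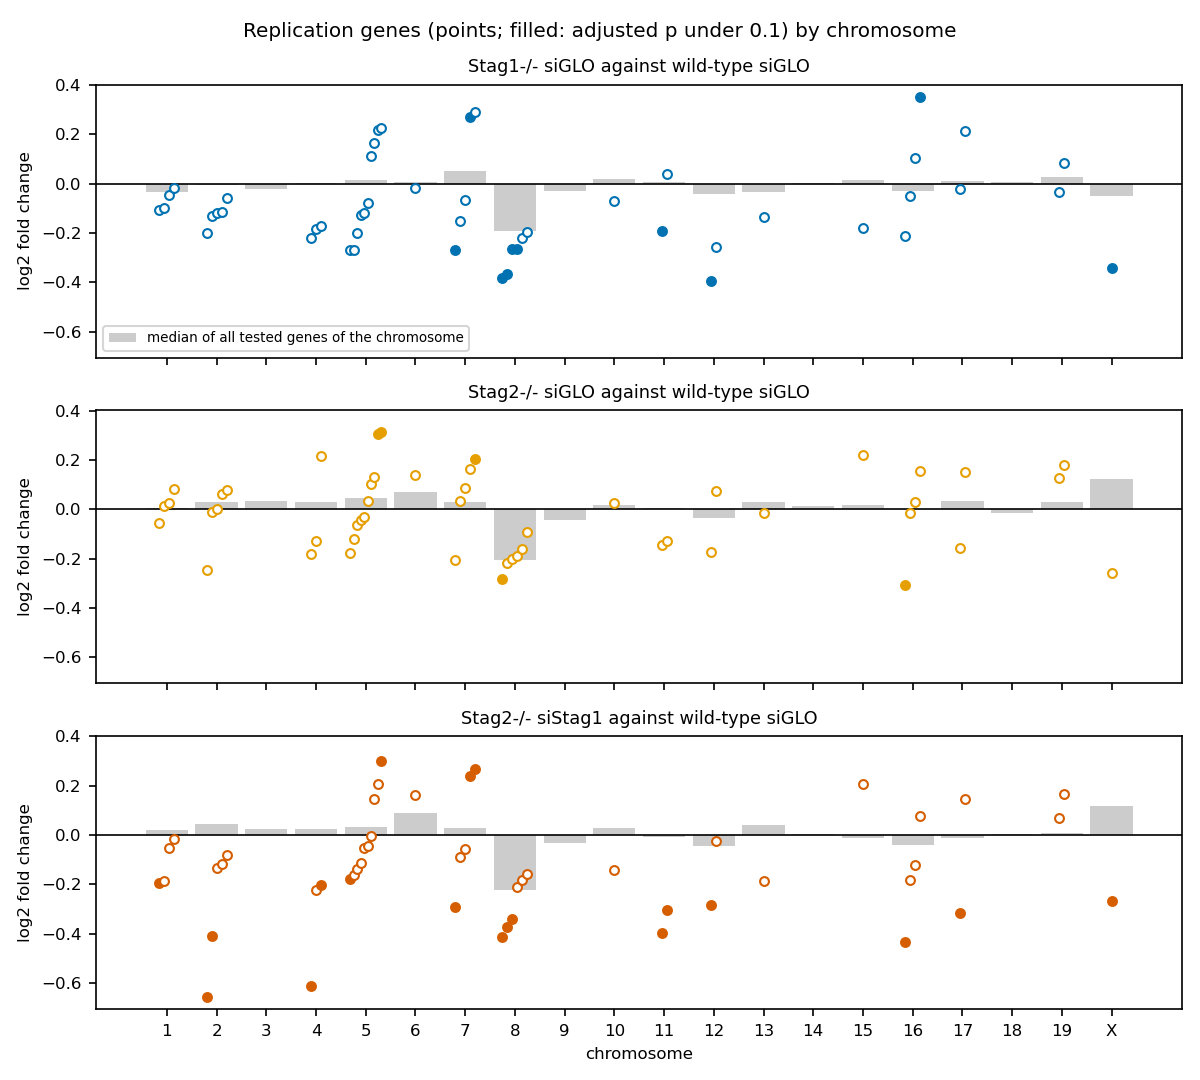
Log2 fold change of the replication genes (points, filled for an adjusted p under 0.1) by chromosome (x axis) against wild-type siGLO, over grey bars for the median of all tested genes of that chromosome. The bars of chromosome 8 reach about -0.2 in all 3 panels and its 6 points are all below 0 in each, whereas the lowest points of the bottom panel, E2f1 and Orc1, are on chromosomes 2 and 4.

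Library by library, the median of the 50 genes moved with the replicate number as well as with the condition. Relative to the wild-type siGLO mean, it was 0.05, 0.01 and -0.06 on the log2 scale in replicates 1, 2 and 3 of wild-type siGLO and -0.06, -0.14 and -0.18 in those of Stag2-/- siStag1. In Stag1-/- siGLO cells it was -0.09, -0.11 and -0.13, in wild-type siStag1 cells -0.03, -0.01 and -0.07, and in Stag2-/- siGLO cells 0.06, -0.05 and -0.06. Replicate 3 had the lowest median in all 5 conditions. For 10 of the 50 genes (20%) replicate 1 was the highest in all 5 conditions, against 6.57% of all genes tested, among them Mcm2, Mcm3, Mcm4, Mcm5, Mcm7 and Mcm10. For 6 (12.0%) replicate 3 was the lowest in all 5, against 4.35%. Cdc7 was the gene for which replicate 3 was the highest in every condition. What the shared number stands for is not given in the labels, and its part in the comparisons without a block was not tested gene by gene beyond the blocked values above.

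**Figure D5:**
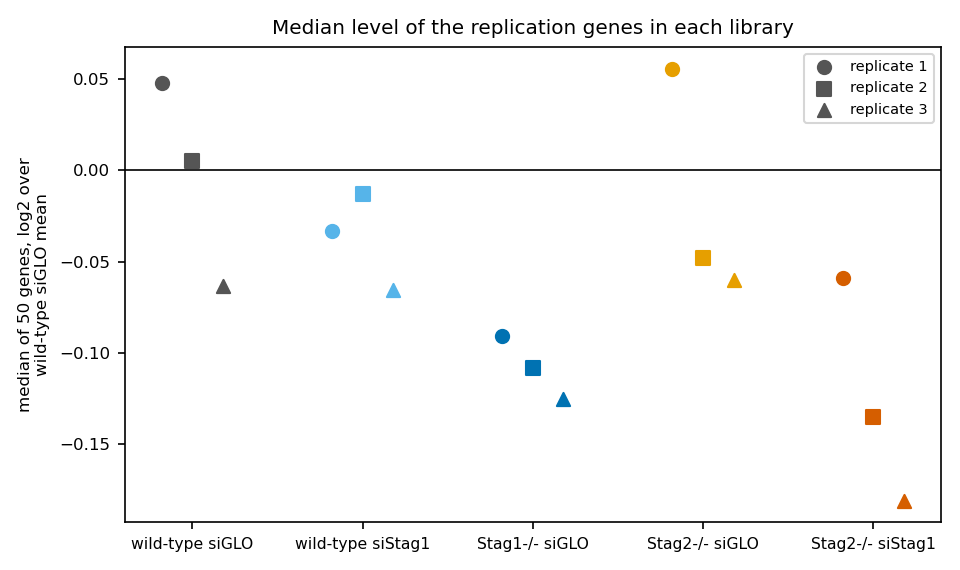
Median over the 50 replication genes of log2 normalized count relative to the wild-type siGLO mean (y axis) in each library, by condition (x axis), with the marker shape giving the replicate number. The Stag1-/- siGLO, wild-type siStag1 and Stag2-/- siStag1 medians are all below 0, and within each condition the replicate 3 marker is the lowest.

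Another 78 genes of replication were set beside these in 4 lists (accessory replication factors, nucleotide supply, G1/S control and chromatin assembly). In Stag2-/- siStag1 cells 18 were lower (23.1%, against 21.3% of all genes) and 17 higher (against 22.6%) than in wild-type siGLO, and the median of the log2 differences was -0.02. In Stag1-/- siGLO cells 16 were lower and 5 higher, where 20.0% of all genes were called in either direction. In Stag2-/- siGLO cells 13 were lower and 11 higher, against 28.3% of all genes, and in wild-type siStag1 cells 1 and 0, against 0.248%. In Stag2-/- siStag1 against Stag2-/- siGLO cells 5 were lower and 4 higher, against 6.37%. With the block the lower and higher counts were 22 and 8 in Stag1-/- siGLO, 16 and 18 in Stag2-/- siGLO, 1 and 1 in wild-type siStag1 and, against Stag2-/- siGLO, 9 and 5 in Stag2-/- siStag1 cells, where 30.6%, 39.4%, 1.63% and 14.1% of all genes were called. The largest called change in Stag2-/- siStag1 cells was in the G1/S control list. Ccnd3, a D-type cyclin that acts on the RB family, had 4534, 5322 and 4682 counts in wild-type siGLO, 3294, 3594 and 3277 in wild-type siStag1, 3432, 3068 and 2953 in Stag1-/- siGLO, 2355, 2461 and 2657 in Stag2-/- siGLO and 1271, 1220 and 1440 in Stag2-/- siStag1 cells. It was the single gene of the 78 called in wild-type siStag1 cells without the block (log2 difference -0.52, SE 0.09, adjusted p = 0.0349), and it fell by 1.89 in Stag2-/- siStag1 cells (SE 0.09, adjusted p = 1.53e-09). Cdk6, a D-type cyclin partner kinase, fell by 1.00 on the log2 scale there (SE 0.15, adjusted p = 0.000118), and Pold4, the small subunit of polymerase delta, by 0.84 (SE 0.27, adjusted p = 0.0219). Cdkn1c, a CDK inhibitor, rose by 1.37, Ccnd1, another D-type cyclin, by 0.76, and E2f3, a further activator E2F, by 0.65 in the same cells.

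In Stag1-/- siGLO cells the largest changes among the called genes of these 78 were rises of the CDK inhibitors Cdkn2a (1.20) and Cdkn1c (1.16) and of Mycn (0.53), and falls of the deoxycytidylate deaminase Dctd (-0.91), the p53-inducible reductase subunit Rrm2b (-0.91) and the RB family gene Rbl2 (-0.65), all as log2 differences. In Stag2-/- siGLO cells the largest called changes were rises of Ccnd1 (0.72), Mycn (0.57) and E2f3 (0.48) and falls of Ccnd3 (-0.96), the CDK inhibitor Cdkn1a (-0.82) and Rbl2 (-0.80). Adding siStag1 to Stag2-/- cells lowered Ccnd3 (-0.93), Cdk6 (-0.58) and the activator gene E2f2 (-0.54) and raised Cdkn1c (0.91), the E2F partner Tfdp2 (0.35) and the repressor E2f6 (0.32). Between the knockouts, 7 of the 9 listed genes of nucleotide supply other than Rrm1, Rrm2 and Tyms were higher in Stag2-/- than in Stag1-/- siGLO cells and 0 were lower, against 12.9% of all genes higher. The largest called rises in that comparison were of Ccnd2, Dctd and the polymerase epsilon subunit Pole3 (1.13, 0.66 and 0.58), and the largest called falls of Cdkn2a, Cdkn1c and the topoisomerase Top2a (-1.54, -0.70 and -0.41).

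A list of mitotic genes was set beside the replication genes for contrast. Of its 12 genes, such as the cyclin gene Ccnb1 and the kinase genes Plk1 and Aurka, none was lower in any of the 4 comparisons with wild-type siGLO, while 4 were higher in Stag1-/- siGLO (Aurka, Cdc20, Mki67 and Plk1), where 10.1% of all genes were higher, 2 in Stag2-/- siGLO (against 13.9%), 2 in Stag2-/- siStag1 (against 22.6%) and 0 in wild-type siStag1 cells. Markers of other cell types moved with the knockouts as well. All 7 primitive endoderm markers were lower than in wild-type siGLO cells in each of the 3 knockout conditions, with summed normalized counts of 4038 to 4441 in wild-type siGLO, 339 to 544 in Stag1-/- siGLO, 733 to 1189 in Stag2-/- siGLO and 877 to 1158 in Stag2-/- siStag1 cells. Of the embryonic stem cell markers, 6 of 10 were lower in Stag2-/- siStag1 cells (against 21.3% of all genes), which fell by 2.64 (Esrrb), by 1.74 (Zfp42) and by 1.61 (Nanog) on the log2 scale among others, and 1 was higher, Sall4 (0.29, adjusted p = 0.0806). Neural markers, summed, were 1905 to 2700 in wild-type siGLO, 2136 to 2493 in Stag1-/- siGLO, 2929 to 4526 in Stag2-/- siGLO and 3329 to 5657 in Stag2-/- siStag1 cells. Of the 4 neural markers, Sox1 was called lower in Stag1-/- siGLO cells, by -2.91 on the log2 scale (adjusted p = 0.004), against the direction of the sum. In Stag2-/- siStag1 cells Sox1 counts were 54, 225 and 483, against 542, 361 and 417 in wild-type siGLO. There 2 of the 4 neural markers were called higher and 0 lower without the block, and 3 higher and 1 lower with it. The trophoblast markers were 504 to 688 in Stag1-/- siGLO and at most 158 in every other condition, mesoderm markers were at most 483 and fibroblast markers at most 697 in any library. Of the 3 mesoderm markers that passed the filter, 1 was called higher and 1 lower in each Stag2-/- condition against wild-type siGLO. In these comparisons 28.3% (siGLO) and 43.9% (siStag1) of all genes were called. The part of these cell state differences in the values of the replication genes was not tested.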

How the data were processed

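Polyadenylated RNA was sequenced as 150 bp paired-end reads, which the authors aligned to mm10 with STAR, and they deposited raw read counts per gene. The counting tool, annotation and strand setting are not given in the sources used here, so reads of overlapping genes on opposite strands could not be told apart. The deposited counts carry 4 summary lines (19.8 to 23.4% of a library), which were left out. The 50 genes, the other lists and the rule for naming genes were chosen with earlier results of these data known.

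The tests used edgeR 4.0.16 in R 4.3.3 (filterByExpr by condition with a minimum count of 10 and total of 15, TMM, glmQLFit on all 15 libraries, a mean per condition, two-sided glmQLFTest). Of 23412 genes, 14508 were tested, p-values were adjusted by Benjamini-Hochberg over these, and genes were called under 0.1. SE was obtained as |log2 fold change| over √F. At these depths 3 counts correspond to 0.157 to 0.2 CPM, which covers counting error only. In each comparison values per library are given for up to 6 called genes in each direction, for Mcm2 to Mcm7 and for Stag1 and Stag2, and from the 78 other genes up to 3 in each direction are named. Further called genes of the 50 are given in brief.

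Libraries of 1 number deviated together across 12439 genes (r of 0.2 to 0.332 for Stag1-/- siGLO, 0.102 to 0.494 for Stag2-/- siGLO, 0.21 to 0.539 for wild-type siStag1 with wild-type siGLO, 0.276 to 0.727 for Stag2-/- siStag1 with Stag2-/- siGLO, 0.244 to 0.287 between the knockouts), so blocked values are given there. The numbers come from the sample labels. Over all pairs of conditions the mean r was 0.282 for same-numbered and -0.138 for differently numbered libraries, the latter from -0.694 to 0.418. The highest of these, replicate 3 of Stag2-/- siGLO with replicate 2 of Stag2-/- siStag1, exceeded the 0.276 of their replicates 2. Alternatives were DESeq2 1.42.0, the scaling in edgeR (DESeq2 size factors, or library size alone), the filter (none, or a minimum of 10 counts per library), a fit to only those libraries that a comparison uses, a threshold of 0.05, the replicate block, each library left out, fold changes less the chromosome median and, added after the data were seen, the genes not on chromosome 8. On simulated data edgeR recovered 169 of 200 genes changed 2-fold in Stag2-/- siStag1 and called 19 of 14063 unchanged genes, among 14263 genes. The contrast of the siStag1 effects had less power, with 83 of 200 such genes found and 10 false calls among 14071 unchanged genes (14271 in all). The simulation gave every gene the same dispersion and had no effect of the replicate number. In Stag2-/- siStag1 against wild-type siGLO cells the 50 genes had log2 differences of -0.655 to 0.3, all smaller than 2-fold. The simulated rates therefore do not give the power for changes of that size. No 2 libraries of a condition were copies by a chi-square test of their counts. Positions and exon lengths come from GENCODE M21, promoters from RefSeq (GRCm38.p6). Other assays of the study were not analysed here. Figures were drawn with matplotlib 3.10.9.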

Additional observations from a re-analysis of the deposited data

How the results depend on the processing

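None of the 47 calls reversed under any alternative. Lost were 1 with DESeq2, 2 with DESeq2 size factors, 3 with library size alone, 7 with no expression filter, 16 with only the libraries compared, 16 at an adjusted p under 0.05, 0 with at least 10 counts in every library and 0 with the replicate block. With 1 library left out, 19 calls held in every fit and 28 were lost in at least 1. In these fits the count of called replication genes ranged over 3 to 13 in Stag1-/- siGLO, 1 to 6 in Stag2-/- siGLO and 14 to 21 in Stag2-/- siStag1 cells against wild-type siGLO, 1 to 5 in Stag2-/- siStag1 against Stag2-/- siGLO and 6 to 12 between the knockouts, and was 0 in each of them in wild-type siStag1 cells and for the difference between siStag1 effects. Without replicate 2 of wild-type siGLO it was 3 in Stag1-/- siGLO (6 without replicate 1 of Stag1-/- siGLO) and 1 in Stag2-/- siGLO cells (2 and 3 without replicates 2 and 3 of Stag2-/- siGLO). Against Stag2-/- siGLO it was 1 without replicate 3 of Stag2-/- siStag1 and 2 without its replicate 2 or any library of Stag2-/- siGLO.

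Counts beyond 1.5 times those reported were as follows. In Stag1-/- siGLO cells they were 6 with no filter, 5 with only the libraries compared, 24 with the replicate block, 5 at an adjusted p under 0.05 and 6 off chromosome 8. In Stag2-/- siGLO cells they were 3 with only the libraries compared, 15 with the block and 3 at an adjusted p under 0.05. Between Stag2-/- siStag1 and Stag2-/- siGLO they were 1, 8 and 2 under the same settings. Between the knockouts they were 4 with only the libraries compared and 20 with the block. For Stag2-/- siStag1 with wild-type siGLO the r of same-numbered libraries was 0.405, 0.035 and 0.351 (mean 0.264), so that 1 of 3 pairs was under 0.1, and the block gave 27 calls (against 53.7% of all genes called). For the difference between siStag1 effects the block gave 1 call, Mcm10, where the lowest r was -0.08. The cause of these changes was not tested. Some settings bring fewer libraries, fewer of the 50 genes or a stricter threshold, and the setting with no filter tests more genes. The median log2 fold change in Stag1-/- siGLO cells moved from -0.12 to -0.09 less the chromosome medians. The median SE over the 50 genes was 0.095 on the log2 scale, and 0.135 for the difference between siStag1 effects. The median absolute change was 0.182 in Stag2-/- siStag1 and 0.06 in wild-type siStag1 cells against wild-type siGLO, and 0.071 for that difference. The medians of the last pair were thus below the median SE. Larger changes were not called either, such as that of Mcm3 in wild-type siStag1 cells (-0.178, SE 0.078). The smallest change detectable at this depth and number of replicates was not determined.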
